A study of Mus musculus with 29 samples.

Results

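Withdrawal of interferon-γ (IFNγ) was compared with its continued presence in NMM, an NRAS-mutant mouse melanoma cell line. The 4 withdrawn libraries came from cells given 100 ng/ml IFNγ for 2, 6, 12 or 24 h, washed with PBS and kept in medium without cytokine for 24 h. The 4 present libraries came from cells kept in medium for 2, 6, 12 or 24 h, washed in the same way and then given 100 ng/ml IFNγ for 24 h. Both stimulation sequences were collected 24 h after the wash, and libraries were matched by the length of the first incubation. These 8 libraries, of 29 in the series, were chosen by their labels alone. A further 4 libraries, from cells kept in medium during both incubations, show the level without cytokine. All cells were of the same line and genotype, and the 12 libraries differ in cytokine and times, as far as the labels say. The titles also carry a serial number, which is lower in every withdrawn library than in every present or medium-alone library. What it stands for is not stated. Each set of 4 values below is in the order of a first incubation of 2, 6, 12 and 24 h.

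The sequences differ in more than withdrawal. Withdrawn cells had met IFNγ for 2 to 24 h and present cells for 24 h, so exposure was equal in length only in the 24 h pair, and elsewhere shorter exposure and withdrawal cannot be told apart. The labels name 1 library for each sequence and duration and no replicate cultures. The 4 durations therefore stood in as replicates, with duration as a term of the model. The spread behind p-values and standard errors was estimated over all 29 libraries of the series. It is not that of the 8 compared libraries alone, and it may be technical. Fewer responding cells and less RNA per cell cannot be told apart in bulk RNA.

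The 8 libraries held 17385810 to 23147045 counts each. Expression is given as the deposited counts relative to each library's TMM-scaled size (CPM). Of 28229 genes in the table, 14935 passed the filter on low counts and were tested. A gene is said to be called, or to rise or fall, where edgeR's quasi-likelihood test with Benjamini-Hochberg adjustment over all 14935 genes gave an adjusted p under 0.05. Fold changes are log2 values of withdrawn over present, with standard errors, from 4 libraries of each sequence. As to the labelled cell type, Mitf, Pax3, Sox9 and Nes were expressed in all 12 libraries, while Kit and Mc1r had 0 counts in all of them and Sox10 and Pmel had at most 2 and 9 counts in any library. Gene positions follow the columns of the count table (GRCm38). Several genes named below overlap another expressed gene in those coordinates (Psmb9 and Tap1, Igtp and Irgm2, Gbp4 and Gbp9, Batf2 and Arl2, Atf5 and Nup62, Loxl3 and Htra2, Gsdme and Mpp6, Col4a1 and Col4a2, Igfbp7 and Polr2b, Il18bp and Numa1, Prg4 and Tpr, Slc16a3 and Csnk1d, Irf7 and Phrf1, Irf9 and Rnf31). How the counting treated strand is not stated, and reads of such pairs may not be told apart. Of 20 leukocyte markers 11 were in the table, of which 7 had counts in withdrawn and 5 in present cells. Cd3g had 0 counts in the 12 libraries and Ptprc at most 2. Of the 3 leukocyte markers tested, Laptm5 was higher in every withdrawn library than in every present one (log2 fold change 1.13 ± 0.26, adjusted p = 0.00152).

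IFNγ binds the receptor chains IFNGR1 and IFNGR2 and activates the kinases JAK1 and JAK2, which phosphorylate STAT proteins. STAT dimers bind GAS elements and induce first-wave genes, among them the transcription factor Irf1, and IRF factors then act on ISRE elements in later genes such as the guanylate-binding proteins. SOCS proteins and phosphatases such as PTPN2 end the signal. In melanoma cells the pathway is known for raising MHC class I presentation, the chemokines that attract T cells, and the checkpoint ligand PD-L1.

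The promoters of 4 of these genes are printed because their genes differed widely between withdrawn and present cells and because they show windows with and without the elements described above. Each is the 250 bases before the RefSeq gene start (GRCm38.p6), 5′ to 3′ on the gene's strand. Capitals mark matches to a GAS motif (TTCNNNGAA, identical on both strands) or an ISRE-type motif (GAAA, any 2 bases and GAAA, or on the other strand TTTC, any 2 bases and TTTC). The stretches lie at chr11:53769764-53770013, plus strand (Irf1), chr16:10785537-10785786, minus strand (Socs1), chr3:142620413-142620662, plus strand (Gbp2) and chr5:92328080-92328329, minus strand (Cxcl9).
Irf1: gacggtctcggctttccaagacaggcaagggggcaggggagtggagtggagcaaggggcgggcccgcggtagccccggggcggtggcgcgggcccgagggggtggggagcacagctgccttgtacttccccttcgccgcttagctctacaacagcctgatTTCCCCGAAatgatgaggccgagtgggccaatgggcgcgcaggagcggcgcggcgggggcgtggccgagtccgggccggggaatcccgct
Socs1: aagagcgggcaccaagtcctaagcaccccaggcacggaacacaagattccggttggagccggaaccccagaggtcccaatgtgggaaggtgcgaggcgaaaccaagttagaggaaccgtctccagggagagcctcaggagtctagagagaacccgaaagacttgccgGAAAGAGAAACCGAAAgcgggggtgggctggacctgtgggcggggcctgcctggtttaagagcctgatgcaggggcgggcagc
Gbp2: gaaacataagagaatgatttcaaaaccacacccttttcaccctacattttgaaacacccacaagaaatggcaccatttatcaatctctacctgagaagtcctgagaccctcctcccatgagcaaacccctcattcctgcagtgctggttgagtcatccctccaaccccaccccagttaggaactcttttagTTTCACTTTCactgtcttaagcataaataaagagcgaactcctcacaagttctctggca
Cxcl9: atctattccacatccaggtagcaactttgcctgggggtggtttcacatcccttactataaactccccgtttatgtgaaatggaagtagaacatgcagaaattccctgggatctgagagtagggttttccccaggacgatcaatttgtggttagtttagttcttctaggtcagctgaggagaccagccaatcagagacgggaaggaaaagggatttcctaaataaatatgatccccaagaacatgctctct
The Irf1 window held 1 GAS match, whose first base lay 90 bases before the gene start. Socs1 held 2 ISRE-type matches that share bases, starting 83 and 77 bases before the start, and Gbp2 held 1 at 59 bases. No match to these letters fell in the Cxcl9 window, nor in those of Psmb9, Acod1 and a second start of Irf1, which were searched and are not printed. Of all 27025 genes with a promoter in the RefSeq table, 8.13% had a GAS match and 3.46% an ISRE-type match in this window, and of the 10069 tested genes with one the shares were 7.18% and 3.22%. Of the 65 genes from the 6 lists of IFNγ signalling, GTPases, MHC class I, chemokines, Ifi200 genes and metabolic effectors that fell and had a promoter in the table, 23.1% had a GAS match and 35.4% an ISRE-type match. Among all 2337 genes that fell and had a promoter in the table, the shares were 7.4% and 4.84%. A match is a description of the letters only.

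Withdrawal and presence of IFNγ separated a large part of the transcriptome. In withdrawn cells 3104 genes were lower (20.8% of those tested) and 3105 higher (20.8%) than in present cells. Among these, 566 were lower and 583 higher by more than 2-fold, and 97 were lower and 30 higher by more than 8-fold. The median log2 fold change over all genes was 0.01. In 2659 genes (17.8%) every withdrawn library lay below every present library, and in 2526 (16.9%) every one lay above. Against medium alone, the same withdrawn libraries gave 118 called genes (0.79%), of which 57 were higher (0.382%) and 61 lower (0.408%), with 2356 genes at an unadjusted p under 0.05. Present against medium alone gave 6547 (43.8%), with 3388 higher (22.7%) and 3159 lower (21.2%). These comparisons share libraries, so their counts are not independent of each other.

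**Figure D1:**
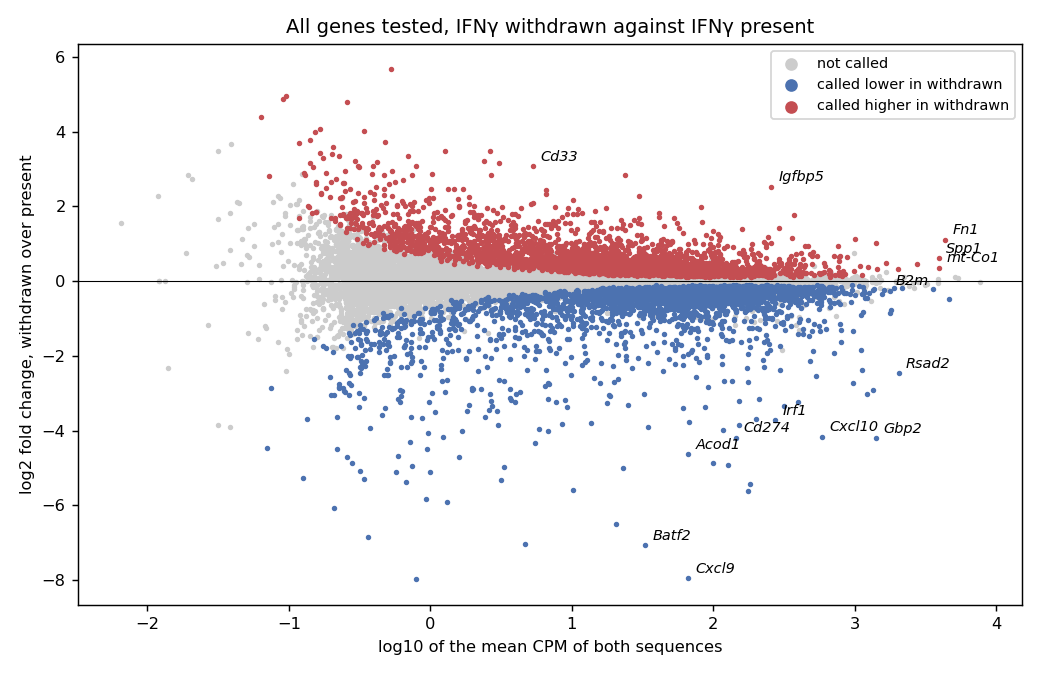
Log2 fold change of IFNγ withdrawn over IFNγ present (vertical axis) against log10 of the mean CPM of both sequences (horizontal axis). Each point is a tested gene with counts in either sequence. Called genes are coloured, 3105 higher and 3104 lower. Of the genes with a label, Cxcl9 lies furthest below 0, at -7.95, and Cd33 furthest above, at 3.08.

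The pair at each duration gave differences of similar breadth. Over all tested genes the log2 difference of withdrawn minus present had an SD of 0.671, 0.628, 0.711 and 0.762. Differences of more than 2-fold were seen for 765, 743, 803 and 842 genes that were lower in the withdrawn library and 758, 741, 874 and 1096 that were higher. The 24 h pair, in which exposure was equally long, thus held the most genes past 2-fold in both directions. These counts come from single libraries and carry no test.

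Genes of IFNγ signalling were mostly lower after withdrawal. Of 20 tested members of the list, 13 fell and 2 rose, with a median log2 fold change of -0.76 beside 0.01 over all genes, where 20.8% were lower and 20.8% higher. Irf1 (ENSMUSG00000018899, chr11:53770014-53778374), the first-wave transcription factor, had 47.6, 42.7, 35.5 and 31.8 CPM in withdrawn cells, against 509.8, 465, 532 and 513 CPM in present cells and 47.6, 20.0, 41.6 and 44.7 CPM in medium alone. The withdrawn and present libraries were far apart, and the withdrawn values overlapped those of medium alone. The log2 fold change was -3.71 ± 0.28 (SE, n = 4 each, adjusted p = 1.03e-09), and against medium alone it was 0.01 ± 0.26 (adjusted p = 0.987).

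Batf2, a transcription factor of the IFNγ response in macrophages, had 0.105, 0.833, 0.416 and 0.575 CPM in withdrawn cells, against 58.5, 50.8, 76.8 and 74.4 CPM in present cells. It was nearly silent in every withdrawn library, and the log2 fold change was -7.07 ± 0.41 (adjusted p = 2.32e-11). Irf8, another IFN-regulatory factor, had 26.2, 23.0, 35.7 and 30.4 CPM in withdrawn cells, against 91.2, 96.0, 159.8 and 137 CPM in present cells and 27.1, 13.4, 26.3 and 27.7 CPM in medium alone (log2 fold change -2.06 ± 0.12, adjusted p = 1.42e-11). Its present libraries of 12 and 24 h were higher than those of 2 and 6 h. Irf2, which competes with Irf1 for the same elements, was lower as well (log2 fold change -0.94 ± 0.06, adjusted p = 1.43e-10).

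Socs1, Socs3 and Ptpn2, which restrain the signal, were lower. Socs1 (chr16:10782240-10785536), the inhibitor of JAK kinases, had 6.29, 7.05, 3.90 and 5.75 CPM in withdrawn cells, against 28.6, 20.0, 29.1 and 27.0 CPM in present cells and 6.76, 4.39, 4.88 and 6.70 CPM in medium alone. Withdrawn values overlapped those of medium alone and lay at least 2-fold below every present value. Its log2 fold change was -2.19 ± 0.16 (adjusted p = 5.81e-10). Socs3 fell by 2.00 ± 0.15 on the log2 scale (adjusted p = 1.69e-09). Ptpn2, a phosphatase that acts on the pathway, fell by 0.73 ± 0.07 (adjusted p = 3.51e-08).

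Both receptor chains were higher. Ifngr1 (chr10:19591949-19610229) had 13.2, 13.4, 13.5 and 14.9 CPM in withdrawn cells, against 11.8, 11.8, 11.3 and 12.2 CPM in present cells, a log2 fold change of 0.22 ± 0.08 (adjusted p = 0.0287). Ifngr2 had 33.0, 33.1, 33.6 and 31.6 CPM in withdrawn cells, against 27.6, 26.6, 22.4 and 22.0 CPM in present cells (0.42 ± 0.08, adjusted p = 1.84e-04). Neither chain's libraries overlapped between the sequences, although both differences were small. The Ifngr1 call was lost in 9 of 18 alternatives, with adjusted p up to 0.129. They include leaving out the 2 or the 24 h withdrawn library (adjusted p = 0.0624 and 0.0813) and the 6, 12 or 24 h present library (0.0522, 0.094 and 0.0548). Jak2 had 81.7, 76.2, 77.1 and 70.3 CPM in withdrawn cells, against 137, 121, 157 and 153 CPM in present cells, a log2 fold change of -0.89 ± 0.08 (adjusted p = 3.48e-08).

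Other signalling genes divided into called and uncalled. Stat2, Irf7 and Irf9, which serve the type I interferon response, were not called, at -0.60 ± 0.42 (adjusted p = 0.27), -0.71 ± 0.66 (0.417) and -0.33 ± 0.28 (0.363). Stat3, which carries signals of the IL-6 family, fell by 0.61 ± 0.11 on the log2 scale (adjusted p = 1.34e-04).

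**Figure D2:**
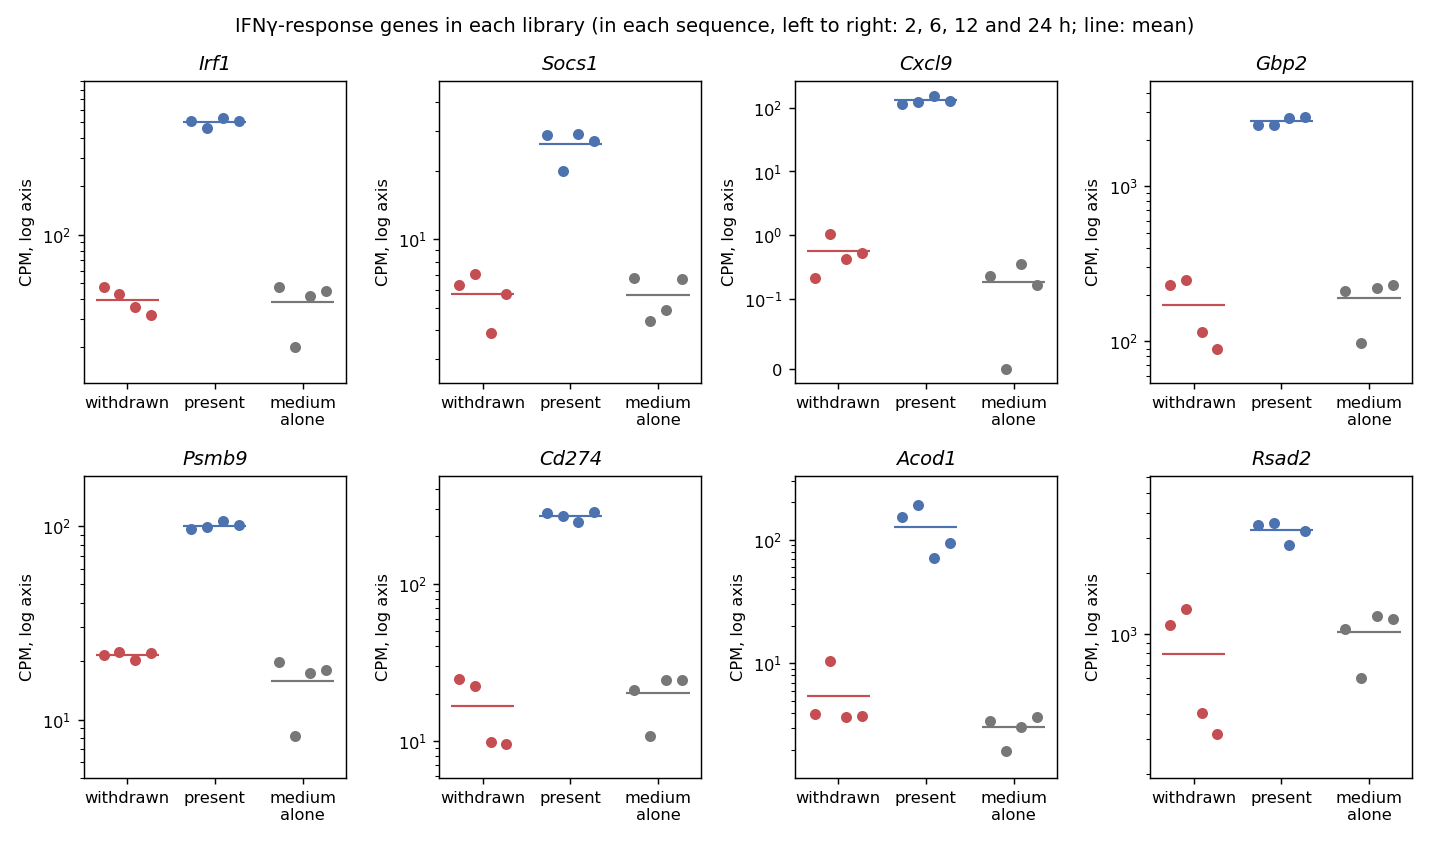
CPM on log axes (the Cxcl9 axis is linear below 0.1) of 8 IFNγ-response genes in each library of the withdrawn, present and medium-alone sequences. Points run from 2 to 24 h from left to right, and the line is the mean of 4. In all 8 genes every withdrawn library lies below every present one. In Gbp2, Cd274 and Rsad2 the withdrawn libraries of 12 and 24 h lie below those of 2 and 6 h.

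Guanylate-binding proteins (GBP) and immunity-related GTPases (IRG), which attack the vacuoles of intracellular pathogens, were lower without exception among the members tested. All 20 fell, beside 20.8% of all genes, with a median log2 fold change of -2.78. In all 20 the withdrawn libraries lay below every present one, beside 17.8% of all genes. The remaining member, Gbp2b, had too few counts to be tested. Gbp2 (chr3:142620602-142638008) had 230.0, 249, 114 and 89.6 CPM in withdrawn cells, against 2484, 2469, 2775 and 2809 CPM in present cells and 212, 97.9, 221 and 233 CPM in medium alone. The withdrawn libraries of 12 and 24 h were lower than those of 2 and 6 h, and all 4 were far below the present ones. Its log2 fold change was -4.19 ± 0.67 (adjusted p = 3.48e-05).

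Gbp4 had 5.98, 8.83, 6.97 and 11.3 CPM in withdrawn cells, against 347, 284, 405 and 390.2 CPM in present cells and 3.38, 3.52, 4.69 and 3.54 CPM in medium alone. Each withdrawn value was above each medium value, but the difference from medium alone was not called (1.12 ± 0.43, adjusted p = 0.204). Withdrawn against present, Gbp4 changed by -5.43 ± 0.39 (adjusted p = 6.05e-10). Gbp10 fell by 4.99 ± 0.31 on the log2 scale. Among the IRGs, Igtp fell by 3.33 ± 0.47 and Irgm1 fell by 1.93 ± 0.46 on the log2 scale. Several GBPs, and the pair Tgtp1 and Tgtp2, are close copies of each other, so reads may have been divided among them and their separate values are uncertain.

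MHC class I presentation was lower at most steps, while B2m and H2-D1 were not called. Of 28 tested members 21 fell (75%) and none rose, beside 20.8% of all genes in each direction, with a median of -1.33. The immunoproteasome subunit Psmb9 (chr17:34181987-34187764) had 21.7, 22.4, 20.4 and 22.2 CPM in withdrawn cells, against 96.9, 98.6, 107 and 101 CPM in present cells and 19.8, 8.26, 17.3 and 18.1 CPM in medium alone. The withdrawn values were close together and above every medium library, without a call against medium alone (0.43 ± 0.46, adjusted p = 0.695). Against present cells the log2 fold change was -2.23 ± 0.45 (adjusted p = 3.55e-04). The other immunoproteasome subunits, Psmb10 and Psmb8, had log2 fold changes of -2.20 ± 0.27 and -1.67 ± 0.56 (adjusted p = 1.54e-06 and 0.0204).

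The peptide transporter subunit Tap1 (chr17:34187553-34197225) had 144, 158, 110.3 and 108 CPM in withdrawn cells, against 343, 339, 339 and 338 CPM in present cells and 137, 90.5, 138 and 146 CPM in medium alone (-1.45 ± 0.47, adjusted p = 0.0155). Its partner Tap2 had 40.9, 34.7, 31.7 and 39.1 CPM in withdrawn cells, against 158, 145, 132 and 139 CPM in present cells (-1.97 ± 0.23, adjusted p = 6.21e-07). The withdrawn Tap1 values overlapped those of medium alone. Its call was lost in 2 of 18 alternatives, with adjusted p up to 0.0511. Without the 12 or the 24 h present library the adjusted p was 0.0511 and 0.05. The peptide-editing protein gene Tapbpl had 6.24, 8.71, 6.09 and 6.08 CPM in withdrawn cells, against 29.3, 36.5, 29.7 and 33.3 CPM in present cells, the furthest shift in the list (-2.26 ± 0.16, adjusted p = 5.78e-10). Nlrc5, the transactivator of MHC class I genes, fell by 1.58 ± 0.25 (adjusted p = 2.43e-05).

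Among the heavy chains, H2-K1 (chr17:33996017-34000347) had 698, 974, 629 and 750.0 CPM in withdrawn cells, against 1594, 1653, 1250.5 and 1276 CPM in present cells and 669.8, 637, 631 and 667 CPM in medium alone (-0.91 ± 0.31, adjusted p = 0.0212). All withdrawn values lay below all present ones, but the call was lost in 8 of 18 alternatives, with adjusted p up to 0.103. They include leaving out the 2 or the 6 h withdrawn library (adjusted p = 0.0818 and 0.0548) and the 12 or the 24 h present library (0.0664 and 0.0663). H2-D1 was not called, with 908, 1308, 919 and 1070.2 CPM in withdrawn cells against 1683, 1747, 1332 and 1397 CPM in present cells (-0.53 ± 0.36, adjusted p = 0.251). The light chain gene B2m (chr2:122147686-122153083) had 1482, 1737, 1435 and 1601 CPM in withdrawn cells, against 1931, 2061, 1777 and 1689 CPM in present cells and 1495, 1824, 1383 and 1517 CPM in medium alone. Its ranges overlapped, and the difference was not called (-0.24 ± 0.26, adjusted p = 0.477), except in a fit of only the 8 libraries (adjusted p = 0.00503). H2-Q and H2-T genes are close copies, and their separate values are uncertain.

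Of 13 listed MHC class II genes and regulators 4 were tested, and 2 of them fell, Ciita and Rfx5, beside 20.8% of all genes. Rfx5, a promoter-binding factor of these genes, had 28.1, 27.1, 26.8 and 24.4 CPM in withdrawn cells, against 33.4, 32.6, 32.0 and 31.6 CPM in present cells (-0.29 ± 0.09, adjusted p = 0.0127). Ciita, the class II transactivator, had 0.105, 0, 0 and 0 CPM in withdrawn cells, against 0.266, 0, 0.76 and 0.612 CPM in present cells, from at most 15 counts in a library (-3.63 ± 0.91, adjusted p = 0.00774). That call was lost with DESeq2 (adjusted p = 0.52) and without the 12 h libraries (0.0875), and the Rfx5 call without the 12 h libraries (0.0659). H2-Ab1 had 0 counts over the 4 withdrawn libraries and 24 over the 4 present ones, which is at least 7.87-fold lower in withdrawn cells when 3 counts over the group are taken as its floor. Intervals and floors of this kind cover counting error only.

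Chemokines and cytokines of the response were lower as a group. Of 20 tested, 17 fell (85%) and none rose, beside 20.8% of all genes in each direction, with a median of -1.98. Cxcl9 (ENSMUSG00000029417, chr5:92321347-92328079), a ligand of CXCR3 on T cells, had 0.21, 1.05, 0.416 and 0.527 CPM in withdrawn cells, against 114, 126, 156 and 129 CPM in present cells and 0.229, 0, 0.345 and 0.166 CPM in medium alone. It was silent or nearly so in every withdrawn library. Its log2 fold change, -7.95 ± 0.39 (adjusted p = 1.15e-12), was the lowest among genes of at least 5 mean CPM in either sequence, predicted genes left out.

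The other CXCR3 ligands behaved unequally relative to medium alone. Cxcl11 had 0.105, 0.389, 0.104 and 0.0479 CPM in withdrawn cells, against 5.95, 6.10, 6.23 and 6.23 CPM in present cells (-5.33 ± 0.47, adjusted p = 1.13e-08). Cxcl10 (chr5:92346638-92348889) had 150.2, 116, 39.4 and 30.2 CPM in withdrawn cells, against 1126, 994, 1034 and 1192 CPM in present cells and 155, 37.1, 186 and 198 CPM in medium alone (-4.16 ± 0.72, adjusted p = 7.60e-05). The withdrawn Cxcl10 libraries of 12 and 24 h lay below those of 2 and 6 h and below the medium libraries of 2, 12 and 24 h.

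Ccl2, which attracts monocytes, had 10.1, 11.8, 8.48 and 10.8 CPM in withdrawn cells, against 143, 127, 77.5 and 97.4 CPM in present cells (-3.39 ± 0.34, adjusted p = 1.06e-07). Ccl5, a T cell attractant, had 31.1, 77.3, 24.3 and 26.8 CPM in withdrawn cells, against 169, 169, 87.5 and 96.7 CPM in present cells (-1.80 ± 0.41, adjusted p = 0.00111), and its 6 h withdrawn library was the highest of the 4. Il18bp, which neutralises IL-18, fell by 3.18 ± 0.22 and Il6, an inflammatory cytokine gene, fell by 3.15 ± 0.53 on the log2 scale. Il15 fell as well (-3.14 ± 0.58, adjusted p = 1.68e-04), at values of at most 1.47 CPM in any present library.

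Of 15 tested surface ligands that restrain or engage lymphocytes, 7 were lower, 3 higher and 5 not called. The shares were 46.7% lower and 20% higher, beside 20.8% of all genes in each direction, so the share that rose was near that of all genes. Cd274 (ENSMUSG00000016496, chr19:29367455-29388095), which encodes PD-L1, had 24.9, 22.4, 9.78 and 9.62 CPM in withdrawn cells, against 284, 269, 249 and 284 CPM in present cells and 21.1, 10.8, 24.5 and 24.5 CPM in medium alone. The withdrawn libraries of 2 and 6 h lay near the highest medium libraries, and those of 12 and 24 h were lower than every medium library. The log2 fold change was -4.19 ± 0.43 (adjusted p = 1.32e-07). Cd47, the signal that restrains phagocytosis, had 73.5, 69.1, 53.9 and 48.7 CPM in withdrawn cells, against 117, 103, 117 and 138 CPM in present cells (-0.99 ± 0.16, adjusted p = 2.65e-05). Cd276, another checkpoint ligand, was higher, with 17.1, 17.2, 14.6 and 14.8 CPM in withdrawn cells against 10.7, 11.9, 11.1 and 10.1 CPM in present cells (0.54 ± 0.10, adjusted p = 1.24e-04). Vsir and Nt5e also rose, Vsir at under 1 CPM in every library of both sequences.

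Antiviral genes shared with the type I interferon response were lower in 19 and higher in 3 of 45 tested, with a median of -1.07, beside 20.8% of all genes in each direction. In 31 the withdrawn libraries lay below every present one, beside 17.8% of all genes. Rsad2 (chr12:26442746-26456452), which encodes viperin, had 1106, 1334, 403 and 318 CPM in withdrawn cells, against 3497, 3576, 2765 and 3257 CPM in present cells and 1054, 605, 1230.3 and 1179.8 CPM in medium alone (-2.46 ± 0.56, adjusted p = 0.00123). Ifit2 (chr19:34550694-34576419), an RNA-binding inhibitor of viral translation, had 605, 573, 217 and 174 CPM in withdrawn cells, against 2176, 1854, 2269 and 2908 CPM in present cells and 585, 403, 619.9 and 645 CPM in medium alone (-2.92 ± 0.49, adjusted p = 5.34e-05). In both genes the withdrawn libraries of 12 and 24 h stood well below those of 2 and 6 h. With Gbp2, these genes had the greatest differences in mean CPM of all genes that fell, a measure that also depends on transcript length.

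Mx1, a GTPase that blocks influenza virus in mice, fell by 2.69 ± 0.58 and Cmpk2, a mitochondrial nucleotide kinase, fell by 2.73 ± 0.67 on the log2 scale. Isg15, the ubiquitin-like modifier, was not called (-1.17 ± 0.51, adjusted p = 0.0683), although all of its withdrawn libraries, at 320.3, 292, 185 and 195 CPM, lay below all present ones, at 530.4, 506, 456 and 561 CPM. Ifitm1 was among the 3 that rose, with 140.3, 157, 150.4 and 147 CPM in withdrawn cells against 65.9, 80.8, 70.7 and 59.6 CPM in present cells (1.11 ± 0.10, adjusted p = 1.11e-08). The other 2 were Ifitm2 and Ifi27.

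All 12 tested genes of the Ifi200 family of DNA-sensing proteins fell, beside 20.8% of all genes, with a median of -1.88. Ifi205 had 31.7, 42.6, 12.3 and 10.4 CPM in withdrawn cells, against 280.0, 251, 277 and 317 CPM in present cells and 29.3, 7.34, 32.2 and 37.7 CPM in medium alone (-3.85 ± 0.62, adjusted p = 3.56e-05). Ifi204 had 655, 686, 357 and 327 CPM in withdrawn cells, against 1118, 1034, 1051 and 1192 CPM in present cells (-1.30 ± 0.50, adjusted p = 0.0387). Each of these again had its lowest withdrawn values at 12 and 24 h. The Ifi200 genes are similar copies in a cluster, and reads may have been divided among them.

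In many of these genes the withdrawn libraries of the 2 longer pulses lay below those of the 2 shorter ones. This comparison was chosen after the values had been seen. In 40 of the 45 antiviral genes (88.9%) both the 12 and the 24 h withdrawn libraries lay below both the 2 and the 6 h ones, beside 20.7% of all genes tested. The same order held for 11 of 12 Ifi200 genes and 17 of 20 GBPs and IRGs. In the present libraries it was seen for 8 of 45 antiviral genes, 5 of 12 Ifi200 genes and 2 of 20 GBPs and IRGs, beside 25.5% of all genes. In medium alone it was seen for 4 of 45 antiviral genes, 0 of 12 Ifi200 genes and 1 of 20 GBPs and IRGs, beside 19.5% of all genes. Among MHC class I genes the order held for 16 of 28 in withdrawn and 17 of 28 in present cells, so there it was as frequent where IFNγ was still present. It held for 8 of 20 chemokines and cytokines in withdrawn and 7 of 20 in present cells, and for 10 of 20 signalling genes in withdrawn and 6 of 20 in present cells.

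After the longer pulses, most antiviral genes also lay below the cells that never met IFNγ. None of the 45, and no Ifi200 gene, was called against medium alone. At 12 h and at 24 h, 37 of the 45 were below all 4 medium libraries, beside 19.3% and 22.6% of all genes tested. At 2 h this was true of 4 (8.89%) and at 6 h of 10 (22.2%), beside 16.1% and 18.2% of all genes tested. The median antiviral level, relative to the mean of the 4 medium libraries, was 0.10, -0.11, -0.71 and -0.79 on the log2 scale in withdrawn cells, against 0.65, 0.49, 0.53 and 0.80 in present cells. For the Ifi200 genes the medians were 0.16, 0.33, -0.82 and -0.98 in withdrawn cells, against 1.66, 1.58, 1.05 and 1.36 in present cells.

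The test for a trend of withdrawn levels with duration called 0 of the 14935 genes by edgeR, with 854 at an unadjusted p under 0.05, among them 9 of the 45 antiviral genes. DESeq2 called 5. With 1 library for each duration the pattern rests on 2 libraries against 2, and the part of differences between cultures was not tested. The 6 h medium library stood apart from the other medium libraries, and not only by its lower antiviral and GBP levels. Its log2 difference from the rest of its sequence had an SD of 0.596 over all tested genes, against 0.32 to 0.361 for the others. Relative to the mean of the 4 medium libraries, its list medians were -0.73 for mitosis, -0.70 for DNA replication and 0.60 for matrix genes. This library enters every comparison with medium alone.

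**Figure D3:**
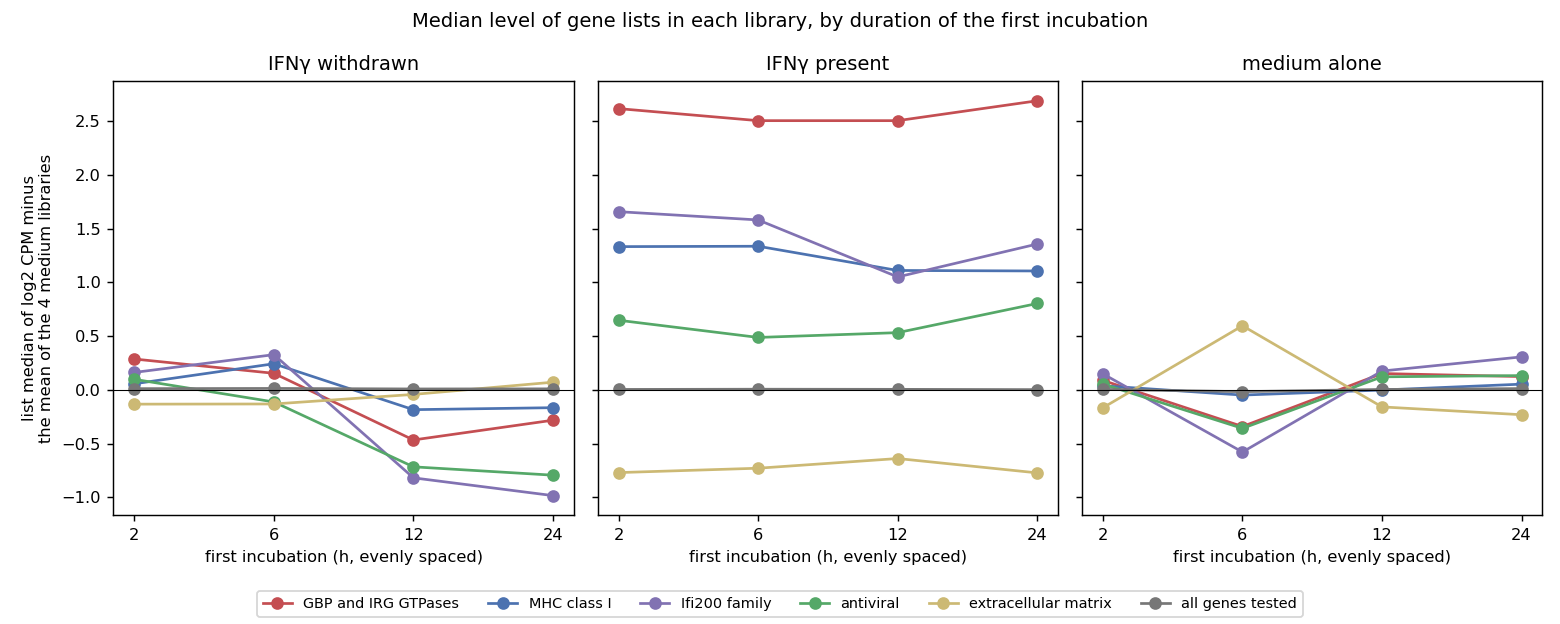
Median over the members of 5 lists and over all tested genes of the log2 CPM in a library minus the gene's mean over the 4 medium libraries (vertical axis), by duration of the first incubation (horizontal axis, 2 to 24 h, evenly spaced). Withdrawn, present and medium-alone sequences have a panel each, and each point is 1 library. Antiviral and Ifi200 medians lie near 0 in the withdrawn libraries of 2 and 6 h and between -0.71 and -0.98 in those of 12 and 24 h, while in present libraries they stay above 0. The matrix list lies near 0 in withdrawn libraries and between -0.64 and -0.77 in present ones.

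Metabolic effectors of the IFNγ response were mostly lower in withdrawn cells. Of 11 tested, 9 fell and 1 rose (81.8% and 9.09%, beside 20.8% of all genes in each direction). Acod1 (chr14:103046977-103056573), the enzyme that makes itaconate, had 3.88, 10.4, 3.70 and 3.73 CPM in withdrawn cells, against 152, 191, 71.3 and 93.6 CPM in present cells and 3.43, 1.96, 3.06 and 3.71 CPM in medium alone (-4.62 ± 0.48, adjusted p = 1.31e-07). Ido1, which degrades tryptophan, had 0 counts in all 4 withdrawn and all 4 medium libraries, against 1.38, 1.34, 1.98 and 1.61 CPM in present cells, at least 40.6-fold lower in withdrawn cells when 3 counts over the 4 libraries are taken as its floor. Apol6 had 0.0524, 0.666, 0.364 and 0.67 CPM in withdrawn cells, against 40.4, 45.0, 45.2 and 31.1 CPM in present cells (-6.49 ± 0.25, adjusted p = 1.22e-14). Nos2, the inducible nitric oxide synthase, had 0, 0.0555, 0 and 0.0479 CPM in withdrawn cells, against 0.355, 0.336, 8.57 and 1.06 CPM in present cells, and 1 present library, that of 12 h, held most of its signal.

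Among the other metabolic genes, the tryptophanyl-tRNA synthetase gene Wars fell by 1.55 ± 0.10 (adjusted p = 6.60e-11), and the argininosuccinate synthase gene Ass1 rose by 0.71 ± 0.16 (adjusted p = 0.00102).

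Cell death genes were lower in 16 and higher in 3 of 28 tested (57.1% and 10.7%, beside 20.8% of all genes in each direction). Casp4, an inflammatory caspase, had 5.19, 6.22, 3.12 and 2.78 CPM in withdrawn cells, against 28.6, 27.0, 22.5 and 20.1 CPM in present cells (-2.59 ± 0.27, adjusted p = 1.55e-07). Mlkl, the executioner of necroptosis, had 259, 286, 191 and 206 CPM in withdrawn cells, against 651, 621, 559 and 639 CPM in present cells (-1.42 ± 0.20, adjusted p = 8.49e-06). Their libraries did not overlap between the sequences. Bcl2, which protects mitochondria, rose by 0.72 ± 0.14, and Gsdme by 0.96 ± 0.21 on the log2 scale (adjusted p = 2.55e-04 and 8.85e-04). Complement genes were lower in 4 and higher in 2 of 9 tested (44.4% and 22.2%), so the share that rose was near that of all genes. C4b had 0.524, 0.944, 0.52 and 0.287 CPM in withdrawn cells, against 4.62, 3.47, 4.56 and 3.28 CPM in present cells (-2.88 ± 0.43), with reads that a near-identical copy may share. The complement inhibitor gene Cd59a had 3.09, 2.39, 2.34 and 2.35 CPM in withdrawn cells, against 0.799, 0.896, 0.507 and 0.389 CPM in present cells (1.98 ± 0.30).

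NF-κB genes and genes of amino acid stress and the unfolded protein response were lower in most members. Of 21 NF-κB subunits, inhibitors and targets 18 fell (85.7%) and none rose, beside 20.8% of all genes in each direction, with a median of -0.58. Nfkb1, a subunit and precursor of NF-κB, had 109.7, 102, 108 and 103 CPM in withdrawn cells, against 147, 146, 151 and 157 CPM in present cells (-0.51 ± 0.05, adjusted p = 1.78e-07). Of 28 stress genes 24 fell (85.7%) and none rose, with a median of -0.67. Atf3, a stress-induced repressor, had 12.8, 13.0, 5.46 and 9.00 CPM in withdrawn cells, against 39.3, 43.7, 30.6 and 40.3 CPM in present cells (-2.00 ± 0.27, adjusted p = 3.81e-06). Atf4, the regulator of the amino acid response, had 520.2, 418, 419 and 317 CPM in withdrawn cells, against 709, 779, 634 and 639 CPM in present cells and 561, 496, 604 and 565 CPM in medium alone (-0.74 ± 0.11, adjusted p = 1.49e-05). Its withdrawn libraries lay below every present library, and those of 6, 12 and 24 h also below every medium library. The chaperone gene Hspa5 fell by 0.78 ± 0.15 (adjusted p = 1.92e-04).

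Genes of DNA replication and the entry into S phase were lower in 20 and higher in 2 of 35 tested. These shares were 57.1% and 5.71%, beside 20.8% of all genes in each direction, and the median was -0.39. Ccne1 (chr7:38097984-38107534), the cyclin that drives cells into S phase, had 21.0, 23.3, 22.1 and 29.3 CPM in withdrawn cells, against 88.8, 79.9, 72.8 and 90.2 CPM in present cells and 20.9, 11.8, 23.1 and 25.7 CPM in medium alone (-1.79 ± 0.21, adjusted p = 7.43e-07). The replication factor gene Mcm10 fell by 0.94 ± 0.16 on the log2 scale. The cell-cycle inhibitor Cdkn1b rose by 0.33 ± 0.07 (adjusted p = 5.07e-04), whereas another inhibitor, Cdkn1a, fell by 0.67 ± 0.10 (adjusted p = 1.12e-05). Of 29 mitosis genes 8 fell and none rose (27.6% lower, beside 20.8% of all genes), among them Top2a, a DNA topoisomerase gene, at -0.61 ± 0.14. Mki67 was not called, with 441, 386, 381 and 386 CPM in withdrawn cells and 465, 411, 427 and 421 CPM in present cells.

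MAPK output genes, which report signalling below NRAS, were more often lower than higher. Of 24 tested, 15 fell and 6 rose (62.5% and 25%, beside 20.8% of all genes in each direction). Egr1, an immediate-early transcription factor, had 118, 59.2, 67.9 and 89.0 CPM in withdrawn cells, against 276, 189.9, 299.7 and 342 CPM in present cells and 116, 36.2, 103 and 115 CPM in medium alone (-1.77 ± 0.25, adjusted p = 7.37e-06). Jun and Myc, transcription factors of the same pathway, had log2 fold changes of -1.29 ± 0.13 and -0.69 ± 0.12. Spry1, a feedback inhibitor of receptor tyrosine kinases, had 42.4, 30.5, 42.7 and 50.5 CPM in withdrawn cells, against 13.0, 12.7, 13.9 and 14.0 CPM in present cells (1.65 ± 0.23, adjusted p = 8.34e-06), while Spry2 fell by 0.56 ± 0.10 (adjusted p = 1.08e-04). Of 22 p53 target genes 7 fell and 2 rose (31.8% and 9.09%, beside 20.8% of all genes in each direction). Melanocyte and neural crest genes were lower in 4 and higher in 2 of 10 tested (40% and 20%, the latter near the share of all genes). Nes, an intermediate filament gene, was at -0.70 ± 0.17 and Gpnmb, a melanosome glycoprotein gene, at 0.75 ± 0.27. The Gpnmb call was lost in 8 of 18 alternatives, with adjusted p up to 0.177, among them without the 12 or the 24 h withdrawn library (adjusted p = 0.0846 and 0.161) and without the 6, 12 or 24 h present library (0.0525, 0.0692 and 0.0732). Among 13 reference genes often used to scale expression, 4 rose and 2 fell (30.8% and 15.4%, beside 20.8% of all genes in each direction). Gusb, a lysosomal enzyme gene, had the furthest difference of the 13, at 0.59 ± 0.06.

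**Figure D4:**
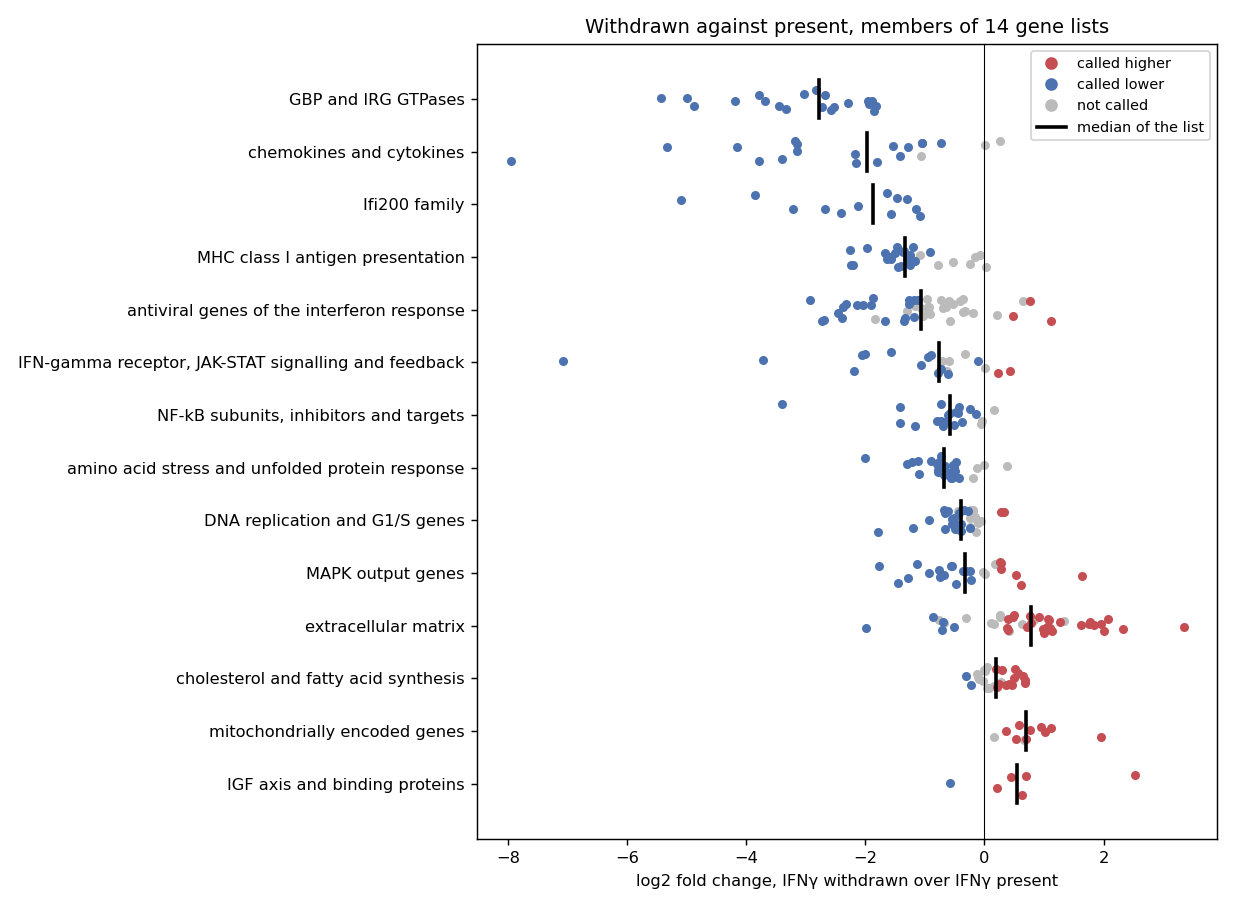
Log2 fold change of IFNγ withdrawn over IFNγ present (horizontal axis) of each tested member of 14 gene lists (rows). Colour marks called members, and the black bar is the list median. All members of the GTPase and Ifi200 lists lie below 0. Most matrix genes and all mitochondrially encoded genes lie above 0.

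Extracellular matrix genes were mostly higher after withdrawal. Of 42 tested, 26 rose and 5 fell (61.9% and 11.9%, beside 20.8% of all genes in each direction), with a median of 0.77. In 24 every withdrawn library lay above every present one, beside 16.9% of all genes. Fn1 (chr1:71585520-71653200), which encodes fibronectin, had 6384, 5105, 6444 and 5767 CPM in withdrawn cells, against 2409, 2615, 3388 and 2706 CPM in present cells and 5962, 10285, 6269.8 and 5901 CPM in medium alone (1.11 ± 0.19, adjusted p = 5.43e-05). Its difference in mean CPM was the greatest among genes that rose. The fibrillar collagen gene Col3a1 had 571, 454, 574 and 699.9 CPM in withdrawn cells, against 147, 142, 192 and 193 CPM in present cells and 544, 1461, 483 and 481 CPM in medium alone (1.77 ± 0.25, adjusted p = 7.56e-06). In both genes the withdrawn libraries lay near 3 of the medium libraries, and the 6 h medium library was higher than all others.

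The basement membrane collagen gene Col4a1 rose by 0.78 ± 0.09 and the protease gene Mmp2 by 0.99 ± 0.12 on the log2 scale. Prg4, a lubricant proteoglycan gene, rose by 3.35 ± 1.07 (adjusted p = 0.0146) at low expression, with 2.04, 0.722, 1.14 and 1.01 CPM in withdrawn cells against 0.0444, 0.336, 0.152 and 0.111 CPM in present cells. Its call was lost in 6 of 18 alternatives, with adjusted p up to 0.0855, among them without the 2 h withdrawn library (adjusted p = 0.0563) and without the 6 h present library (0.0696). Tnc, which encodes tenascin C, was among the 5 that fell, with 1488, 1249, 1216 and 1016 CPM in withdrawn cells, against 2208, 2047, 2526 and 2342 CPM in present cells (-0.86 ± 0.23, adjusted p = 0.00444). The others were Col6a3, Vcan, Col8a1 and Timp3. Spp1, which encodes osteopontin, had 4911, 4739, 4751 and 4623 CPM in withdrawn cells, against 3244, 3387, 2996 and 2801 CPM in present cells (0.62 ± 0.08, adjusted p = 3.14e-06).

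Levels of fibroblast and endothelium markers also differed. Of 14, 13 were in the table, and their summed level was 617 to 895 CPM in withdrawn cells, against 204 to 240.4 CPM in present cells and 590.4 to 1953 CPM in medium alone. Col3a1 and Dcn, which also belong to the matrix list, made up most of that sum. Among the 6 tested, 4 rose, namely Col3a1, Dcn, Pdgfra and Cdh5, and none fell, beside 20.8% of all genes in each direction. Cdh5, an endothelial cadherin gene, had 12.7, 13.7, 12.8 and 9.43 CPM in withdrawn cells, against 8.39, 9.80, 5.73 and 5.45 CPM in present cells (0.73 ± 0.19, adjusted p = 0.00299). Emcn had 0 counts in the 12 libraries, and Kdr, Lum, Pecam1, Tek and Vwf had at most 5 in any. Acta2, too low to be tested, went the other way, with 0 counts over the 4 withdrawn libraries and 15 over the 4 present ones. The part of other cells in the matrix result was not tested. The summed level of the leukocyte markers, mostly Cd14, was 46.1 to 60.3 CPM in withdrawn cells, against 35.4 to 68.5 CPM in present cells.

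Receptors and binding proteins of insulin-like growth factors were higher in 5 and lower in 1 of 6 tested. These shares were 83.3% and 16.7%, beside 20.8% of all genes in each direction. In 3 of the 6 every withdrawn library lay above every present one, beside 16.9% of all genes. Igfbp5 (chr1:72857932-72874884) had 556, 401, 395 and 375 CPM in withdrawn cells, against 88.3, 108, 69.5 and 51.6 CPM in present cells and 568, 4064, 485 and 428 CPM in medium alone (2.53 ± 0.38, adjusted p = 1.59e-05). All withdrawn values exceeded all present ones, and the 6 h medium library was again far above the rest. Igfbp3 fell by 0.58 ± 0.17 (adjusted p = 0.00831). Of 15 integrin subunits 5 were higher and 5 lower (33.3% each, beside 20.8% of all genes in each direction). Itga1, a collagen receptor subunit, rose by 1.47 ± 0.31 on the log2 scale, and Itga6, a laminin receptor subunit, fell by 0.53 ± 0.10.

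Predicted genes and clone names are left out of the rankings that follow. The furthest rises among genes of at least 5 mean CPM were in Cd33, Megf10, Igfbp5, Gxylt2, Tmem119, Ncam1, Tenm4, Sod3, S1pr3 and Dcn. Their log2 fold changes lay between 2.00 (Dcn) and 3.08 (Cd33). Cd33, a sialic acid-binding receptor best known from myeloid cells, had 7.66, 8.44, 10.6 and 11.3 CPM in withdrawn cells, against 1.47, 1.23, 0.963 and 0.723 CPM in present cells and 7.86, 6.93, 7.20 and 6.70 CPM in medium alone (adjusted p = 5.78e-10). Megf10, an engulfment receptor, had 43.7, 39.9, 39.6 and 43.2 CPM in withdrawn cells, against 6.26, 8.79, 4.21 and 4.56 CPM in present cells and 45.8, 115, 38.3 and 37.7 CPM in medium alone. Ncam1, a neural cell adhesion molecule, had 42.9, 40.0, 60.3 and 52.7 CPM in withdrawn cells, against 6.79, 9.07, 13.7 and 11.5 CPM in present cells and 41.2, 78.5, 42.1 and 34.0 CPM in medium alone. For these 3 genes every withdrawn library lay above every present one by more than 2-fold. The furthest falls at that expression level were in Cxcl9, Batf2, Serpina3f, Apol6, Trim30c, Gbp4, Cxcl11, Gbp10, Krt16 and Acod1, between -7.95 (Cxcl9) and -4.62 (Acod1).

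Components and targets of TGFβ signalling, the other cytokine of the study, were higher in 11 and lower in 3 of 26 tested. The shares were 42.3% and 11.5%, beside 20.8% of all genes in each direction, and the median was 0.33. Tgfbr1, a receptor kinase, had 118, 140.2, 119 and 136 CPM in withdrawn cells, against 87.9, 84.0, 80.0 and 78.5 CPM in present cells (0.63 ± 0.09, adjusted p = 8.67e-06). Smad2, Smad3 and Smad4, which carry the signal, were not called, at -0.08 ± 0.05, -0.13 ± 0.07 and -0.04 ± 0.05.

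Mitochondrially encoded genes were higher after withdrawal. Of 11 tested, 9 rose (81.8%) and none fell, beside 20.8% of all genes in each direction, with a median of 0.70. The cytochrome b gene mt-Cytb had 1531, 1814, 1859 and 2347 CPM in withdrawn cells, against 850.4, 1093, 859.5 and 856 CPM in present cells and 1280.0, 2315, 1209.6 and 1218 CPM in medium alone (1.02 ± 0.21, adjusted p = 3.94e-04). The cytochrome oxidase gene mt-Co1 had 4371, 4457, 4368 and 4416 CPM in withdrawn cells, against 3358, 3517, 3714 and 3111 CPM in present cells (0.36 ± 0.10, adjusted p = 0.004), a call lost without the 24 h libraries (adjusted p = 0.0604). Both genes were higher in every withdrawn library than in every present one. Mitochondrial genes took 1.03 to 1.31% of a library's counts in withdrawn cells, against 0.676 to 0.814% in present cells, without overlap. This share is also read as a sign of RNA or cell quality, whose part in the result was not tested. Mitochondrial sequences have nuclear copies, and mt-Co2, mt-Co3, mt-Atp6 and mt-Nd3 were counted at under 10 CPM in all 8 libraries, so their values are uncertain.

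Cholesterol and fatty acid synthesis genes were higher in 13 and lower in 2 of 27 tested, with a median of 0.19. These shares were 48.1% and 7.41%, beside 20.8% of all genes in each direction. Scd2, a fatty acid desaturase gene, had 589, 549, 668 and 649.7 CPM in withdrawn cells, against 361, 362, 438 and 377 CPM in present cells (0.68 ± 0.11, adjusted p = 4.35e-05). Glycolysis and hypoxia genes were higher in 9 and lower in 3 of 32 tested (28.1% and 9.38%, beside 20.8% of all genes in each direction). Vegfa, a vascular growth factor gene, had 1028, 998, 978 and 933 CPM in withdrawn cells, against 530.2, 692, 475 and 396 CPM in present cells (0.94 ± 0.11, adjusted p = 4.51e-07), while the hexokinase gene Hk2 fell by 0.79 ± 0.07 (adjusted p = 1.24e-08).

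Against medium alone, 118 genes were called 24 h after IFNγ had been removed, and this count was not stable. It was 0 in a fit of only these 8 libraries, 6 without duration in the model and 403 by DESeq2. Leaving out 1 library gave 1, 9 and 43 without the withdrawn library of 6, 12 or 24 h, and 498, 65 and 23 without the medium library of 2, 6 or 12 h. None of the 118 belonged to the lists of GTPases, MHC class I, chemokines, antiviral or Ifi200 genes. Glycolysis and hypoxia genes were called most often, with 11 of 32 higher in withdrawn cells than in medium alone and none lower, beside 0.382% of all genes. They include the lactate dehydrogenase gene Ldha, with 876, 915, 973 and 1101 CPM in withdrawn cells against 820.5, 546, 716 and 851 CPM in medium alone (0.41 ± 0.08, adjusted p = 0.022), and the monocarboxylate transporter gene Slc16a3 (0.59 ± 0.12, adjusted p = 0.0272). Present cells had 18 of these 32 higher and 5 lower than medium alone, beside 22.7% and 21.2% of all genes, with the same medium libraries.

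Among genes called both against present and against medium alone, Lgals7, Itgb7, mt-Nd3, Mgarp and Bnip3 were the furthest above medium. Itgb7 (chr15:102215995-102231944), a subunit of leukocyte integrins, had 14.8, 24.9, 22.8 and 33.9 CPM in withdrawn cells, against 86.1, 82.9, 75.1 and 67.4 CPM in present cells and 10.7, 8.44, 9.27 and 11.1 CPM in medium alone. The 3 sequences did not overlap, with withdrawn cells between the others. Its log2 fold change was 1.29 ± 0.29 against medium alone (adjusted p = 0.0389) and -1.68 ± 0.27 against present cells (adjusted p = 2.90e-05). Lgals7, which encodes galectin-7, had 1.73, 5.00, 3.80 and 3.26 CPM in withdrawn cells, against 5.99, 5.93, 6.13 and 7.17 CPM in present cells and 1.23, 0.751, 0.888 and 1.38 CPM in medium alone, and was likewise intermediate (1.64 ± 0.37 against medium alone, adjusted p = 0.0397). Its call against present cells was lost in 6 of 18 alternatives, among them without the 2 h withdrawn library (adjusted p = 0.1) and without the 24 h present library (0.089). Bnip3, a mitophagy receptor gene induced by hypoxia, had 88.6, 100.3, 136 and 143 CPM in withdrawn cells, against 60.0, 64.4, 124 and 96.6 CPM in present cells and 66.3, 62.1, 50.3 and 71.4 CPM in medium alone. It was higher in withdrawn cells than in medium alone by 0.84 ± 0.15 on the log2 scale (adjusted p = 0.0172). Its difference from present cells (0.47 ± 0.15, adjusted p = 0.0135) missed the threshold without duration in the model (adjusted p = 0.199) and without the 2, 6 or 24 h libraries (0.051, 0.0738 and 0.0814).

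Rflnb, Igfbp7, Penk, Atf5 and Serpinf1 were the furthest below medium among genes called in both comparisons. Atf5, a stress-induced relative of Atf4, had 85.0, 63.9, 63.9 and 58.5 CPM in withdrawn cells, against 112, 105, 93.1 and 97.4 CPM in present cells and 111, 157, 120.1 and 105 CPM in medium alone. Its withdrawn libraries were below all libraries of both other sequences (-0.88 ± 0.11 against medium alone, adjusted p = 6.20e-04). Nup62, a nuclear pore gene whose coordinates overlap Atf5, had means of 69.3 ± 2.13, 99.2 ± 5.93 and 76.6 ± 5.39 CPM in withdrawn cells, present cells and medium alone (SD, n = 4 each). Penk, which encodes proenkephalin, had 63.8, 37.6, 42.9 and 31.3 CPM in withdrawn cells, against 15.8, 17.3, 15.2 and 11.6 CPM in present cells and 67.7, 143, 67.5 and 64.6 CPM in medium alone, and so lay between the others. Igfbp7 had 25.4, 26.8, 21.9 and 25.3 CPM in withdrawn cells, against 18.2, 22.1, 10.6 and 12.0 CPM in present cells and 42.0, 93.7, 37.4 and 33.9 CPM in medium alone, and its difference from present cells (0.70 ± 0.19, adjusted p = 0.00537) missed the threshold without the 12 or the 24 h libraries (adjusted p = 0.0559 and 0.0654). For Penk, Igfbp7, Rflnb and Serpinf1 the 6 h medium library was the highest of the 4.

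**Figure D5:**
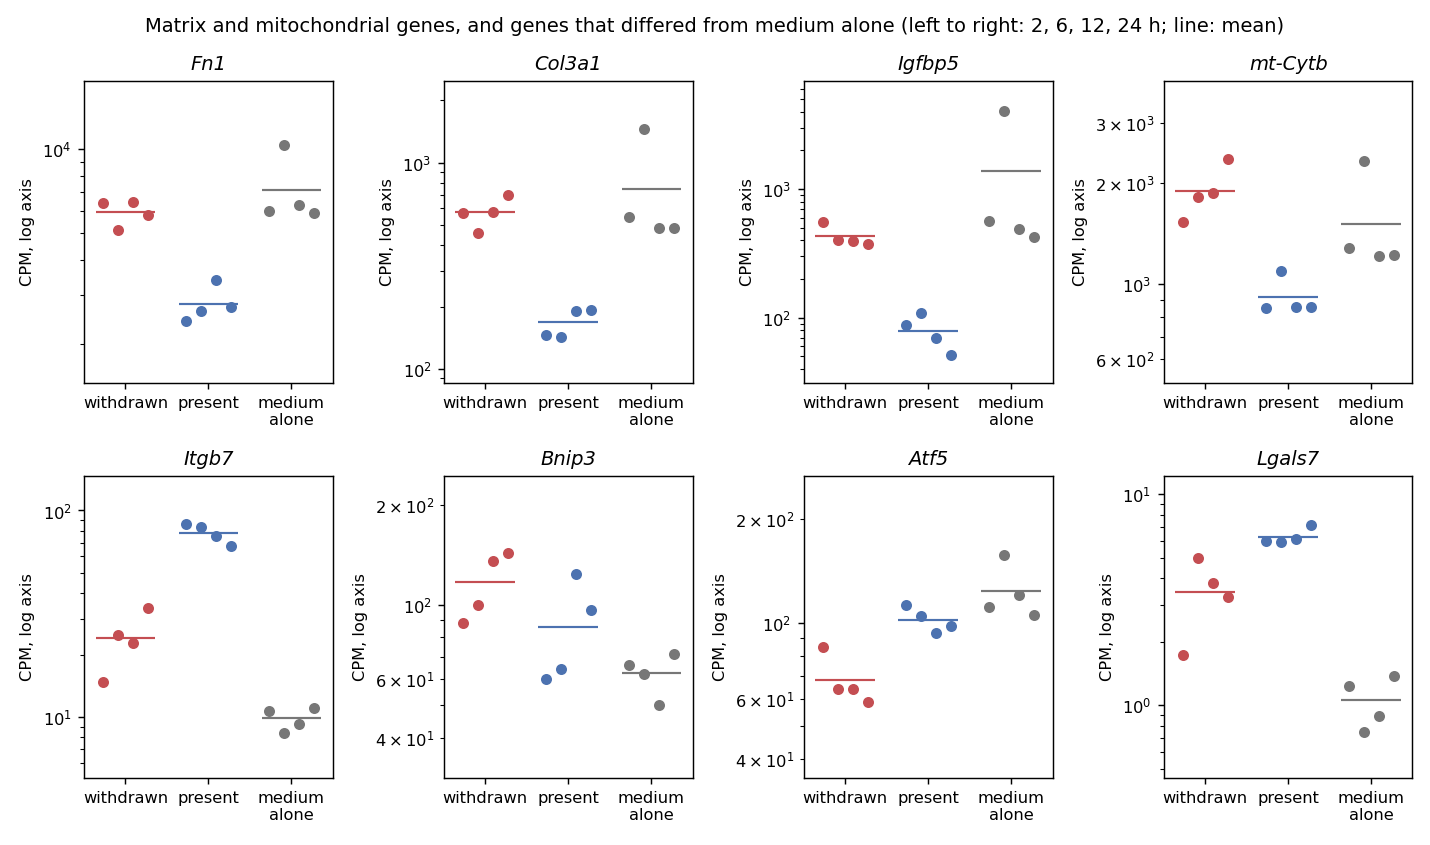
CPM on log axes of 8 genes in each library of the withdrawn, present and medium-alone sequences, with points from 2 to 24 h from left to right and the mean of 4 as a line. Fn1, Col3a1, Igfbp5 and mt-Cytb are higher in every withdrawn library than in every present one. Itgb7 and Lgals7 in withdrawn cells lie between present cells and medium alone, and Atf5 is lowest in withdrawn cells. The 6 h medium point stands high in Fn1, Col3a1, Igfbp5 and mt-Cytb.

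No gene's difference between withdrawn and present cells was shown to change with duration. The trend of withdrawn minus present called 0 of 14935 genes by edgeR, with 477 at an unadjusted p under 0.05, and 0 by DESeq2, with 400. The lowest p-values among genes of at least 5 mean CPM, predicted genes and clone names left out, belonged to Rnf11, Rpl17-ps4 and Uap1l1. Uap1l1 had 43.0, 52.6, 54.6 and 68.5 CPM in withdrawn cells, against 42.4, 41.1, 28.2 and 31.3 CPM in present cells, so the gap was widest at 24 h (adjusted p of the trend = 1). Rpl17-ps4, a ribosomal protein pseudogene, had 40.6, 4.11, 4.22 and 2.59 CPM in withdrawn cells, and its place in the list rests on the 2 h library alone. Within withdrawn cells the lowest p-values under the same limits were those of Rpl17-ps4, Plag1 and Loxl3. Over all tested genes the lowest adjusted p of that trend was 0.085. Loxl3, a lysyl oxidase-like enzyme gene, had 98.4, 91.1, 69.3 and 45.5 CPM in withdrawn cells, lower with each longer pulse, against 132, 122, 119 and 110.1 CPM in present cells (adjusted p of the trend = 0.313).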

How the data were processed

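RNA from NMM cells was sequenced as stranded mRNA libraries. Reads were aligned with HISAT to GRCm38, per the submitters' processing notes; neither counting tool nor strand setting is given in the sources used here. The authors deposited 1 table of raw counts per gene, with 29 libraries and no normalization, and the values were used as deposited.

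Genes were filtered with filterByExpr at a minimum count of 10, scaled by TMM and tested with edgeR 4.0.16 (quasi-likelihood, R 4.3.3), with all 29 libraries in 1 model of stimulation sequence plus duration (18 residual degrees of freedom). Trends used a slope on log2 duration in each sequence. p-values were adjusted by Benjamini-Hochberg over 14935 genes. Alternatives were DESeq2 1.42.0, other scaling, no filter, fewer libraries and no duration term. The model was also run on counts simulated with set changes and no differences between cultures. That run does not address the use of single libraries of different duration as replicates. Libraries of a sequence differed by at least 5.49 in chi-square per degree of freedom, so none was a repeat deposit.

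Named genes were the furthest fold changes at 5 CPM or more, the 3 furthest called members of each list, the greatest differences in mean CPM, the lowest trend p-values, and a fixed set of IFNγ genes. Predicted genes and clone names were left out, except among list members. Others were chosen after their values were seen, as examples of a list or to identify small counts. The comparison and the gene lists were chosen with earlier results of these data known. Values of a few members of these lists are not reported here.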

Additional observations from a re-analysis of the deposited data

Results flagged for a closer look

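A library was taken as standing apart where its gap to the nearest of the other 3 libraries of its sequence, divided by the group's whole range, exceeded Dixon's critical value for 4 samples. This was applied to 116 named genes in withdrawn and in present cells, 232 groups of 4 in all, and 17 groups met it. Ido1 in withdrawn cells, at 0 CPM in all 4 libraries, was passed over. Chance alone gives about 1 in 20 groups if values are normally distributed. Where only 1 library had counts (Ciita and Ifi202b in withdrawn cells, Itga8 in present cells) the criterion is always met, so that rate does not hold. There were 10 in withdrawn and 7 in present cells, and 8 of the 17 concerned a 6 h library.

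In withdrawn cells the 6 h library was high in 4 IFNγ-response genes, with 10.4 CPM for Acod1 (others 3.70 to 3.88), 1.22 CPM for Trim30c (0.157 to 0.335), 0.389 CPM for Cxcl11 (0.0479 to 0.105) and 8.71 CPM for Tapbpl (6.08 to 6.24). Serping1 was at 0 CPM there, a difference of a few counts. The 2 h library was high in Igfbp5 at 556 CPM (others 375 to 401), in Rpl17-ps4 at 40.6 CPM (2.59 to 4.22) and in Ciita at 0.105 CPM. Ifngr1 stood at 14.9 CPM at 24 h (others 13.2 to 13.5), and Ifi202b at 0.0520 CPM at 12 h.

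In present cells the 6 h library was high in mt-Cytb at 1093 CPM (others 850.4 to 859.5), in mt-Nd1 at 746 CPM (568 to 595) and in Mmp12 at 1.23 CPM (0.5 to 0.622). The 12 h library was high in Nos2 at 8.57 CPM (0.336 to 1.06) and in Itga8 at 0.0507 CPM. Lgals7 stood at 7.17 CPM at 24 h (others 5.93 to 6.13), and Tap1 at 343 CPM at 2 h (338 to 339), a difference of little size.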

How the results depend on the processing

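Withdrawn against present called 6209 genes, and 4445 to 6780 under every alternative tried. Of the 116 named genes, the 112 called ones kept their direction in all 2002 comparisons with an alternative, and 12 of them lost their call in at least 1. Among those not called, Rnf11 (-0.03) had values up to 0.13, and Rpl17-ps4 (0.95) was at -0.21 without all 2 h libraries. Withdrawn against medium alone (118) depended on the setting: 403 with DESeq2, 0 with only the libraries compared, 65 without the 6 h medium library, and 1, 0 and 44 without all 6, 12 or 24 h libraries. The trend of withdrawn minus present (0) gave 1 without the low-count filter and 3 without all 6 h libraries. The trend within withdrawn cells (0) gave 5 each with DESeq2, without the filter and with only the libraries compared, 2 without all 2 h libraries and 25 without all 6 h libraries. The causes were not tested.

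Leaving out 1 library in turn gave 5327 to 5793 genes for withdrawn against present, 1 to 498 for withdrawn against medium alone, 5739 to 6372 for present against medium alone, and 0 to 1 for each trend. Where a sequence was then left with fewer libraries, the spread was still estimated over all sequences.

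Libraries of the same duration share only that label. Their deviations correlated at 0.0392, 0.213, 0.181 and 0.0967 (2, 6, 12 and 24 h) between withdrawn and present cells. In that comparison each withdrawn library correlated best with its own duration, a hint from the data and not from the design. Between withdrawn cells and medium alone the values were -0.0409, 0.0536, 0.0177 and -0.0313. There only the 6 h library correlated best with its own duration. Between present cells and medium alone they were 0.00158, 0.233, 0.0526 and 0.138, and the libraries of 6 and 24 h did so. Without duration in the model the counts were 4826 for withdrawn against present, 6 for withdrawn against medium alone and 5247 for present against medium alone.

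With 17385810 to 23147045 counts per library, genes at a few counts, such as Ciita, H2-Ab1 and Ido1, are measured with wide counting error.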
